A study of Rattus norvegicus with 6 samples.

Results

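Grb7 and the neuregulin-ErbB signalling genes were followed in primary ventricular myocytes of newborn rats after transfection with an siRNA against uc.323. The set held 10 genes: Grb7, its family members Grb10 and Grb14, the adaptor Grb2, the receptors Egfr, Erbb2, Erbb3 and Erbb4, and the ligands Nrg1 and Hbegf. Probes of a 1-colour expression array were assigned to them by RefSeq transcript accession, which gave 13 probes for 9 of the 10 genes. No probe was matched to Grb10, so it was not analysed here. A gene was tested when, in 1 group or in both, the scanner software had marked a probe as well above background on all 3 arrays. This held for 8 of the 10 genes, among 11580 named genes tested in all. Grb7 had been picked because it was among the largest decreases of this same comparison, and the others were listed around it with the results known. Levels and differences of the 10 genes are therefore given as a description, without p-values.

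Both groups were male Sprague-Dawley rat myocytes taken at 1 to 2 days of age, with no engineered allele named. In the si-uc.323 group the cells received 50 nmol/L of an siRNA against uc.323, a transcribed ultraconserved region, and in the si-scramble group 50 nmol/L of a scrambled siRNA. All cells had been preplated to reduce fibroblasts, grown for 36 h with bromodeoxyuridine, exposed to siRNA and lipid reagent for 3 h and kept without serum for 21 h more, with RNA taken at 24 h. Each group had 3 samples with 1 array each. The comparison asks what changes in myocytes when uc.323 is targeted. No probe was matched to uc.323, so the depth of the knockdown was not checked here. The siRNA strand is shown because it defines the si-uc.323 group, as the labels give it and without its overhang.
si-uc.323: gguaaguaauuucagcaau

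ErbB receptors are receptor tyrosine kinases that pair up when a ligand of the epidermal growth factor family binds. Neuregulin 1 binds ErbB3 and ErbB4, which signal mostly in partnership with ErbB2, a receptor with no ligand of its own. In the heart, neuregulin from endothelial cells acts on myocytes and is known for its role in growth and survival. Activated receptors carry phosphotyrosines on which adaptors with SH2 domains dock. Grb2 leads from there to Ras and the MAP kinases, while Grb7, Grb10 and Grb14 form a separate adaptor family linked to migration and to insulin receptor signalling.

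The share of probes well above background was 72.4% on si-uc.323 replicate 1, 78.2% on replicate 2 and 86.5% on replicate 3, against 71.8% to 73.9% on the si-scramble arrays. By the scan identifiers, slide 1 held si-uc.323 replicate 1 together with the whole si-scramble group, and slide 2 held si-uc.323 replicates 2 and 3. All 9 cardiomyocyte markers listed were well above background on all 6 arrays. Their summed signal was 207 to 225 times the array's 75th percentile in si-uc.323 and 229 to 243 times in si-scramble, and Actc1, cardiac actin, was the 1 marker called (lower, -0.63). Of the 9 log2 fold changes 6 were positive, with a median of 0.01. The 9 fibroblast markers summed to 126 to 157 in si-uc.323 and 124 to 134 in si-scramble, with Postn called higher. Of 8 tested, 6 had a positive log2 fold change, with a median of 0.17 against 0.02 for all named genes. The 7 mural markers summed to 37.3 to 45.9 in si-uc.323 and 36.9 to 41.1 in si-scramble, with 5 of 7 positive and a median of 0.12. The 8 leukocyte markers summed to 14.0 to 18.1 in si-uc.323 and 16.7 to 16.9 in si-scramble, with Cx3cr1 called lower. Of 7 tested, 3 were positive, with a median of -0.03. Endothelial markers (6 with a probe) summed to 5.60 to 8.61 in si-uc.323 and 11.1 to 12.5 in si-scramble, with none called. Their log2 fold changes ran from -0.76 to 0.73 with 3 of 6 positive and a median of 0.06, and the groups stood apart for 2 higher and 1 lower. Over all genes the groups stood apart for 39.1% (20.1% higher, 19% lower), and 6.14% were called in either direction. The 7 Schwann cell markers measured summed to 0.793 to 0.955 in si-uc.323 and 0.795 to 1.20 in si-scramble, with Cdh19 above background on no array, and the 3 epicardial markers summed to 1.79 to 1.98 in si-uc.323 and 2.09 to 2.39 in si-scramble. In such bulk RNA, fewer cells of a type and less RNA per cell cannot be told apart.

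Grb7 was much dimmer with si-uc.323. Signals are given as log2 of the background-subtracted intensity minus the array's 75th percentile, so that a difference of 1 is a factor of 2 and a level of 0 stands for that percentile. The single Grb7 probe read -2.98, -2.95 and -3.30 on si-uc.323 replicates 1, 2 and 3, against -1.12, -1.11 and -1.04 on si-scramble replicates 1, 2 and 3. All 3 si-uc.323 arrays lay below all 3 si-scramble arrays, and the gap between the groups was far wider than either group. The mean was -3.08 ± 0.20 in si-uc.323 and -1.09 ± 0.05 in si-scramble (SD, n = 3 each). That is a log2 fold change of -1.99 ± 0.13 (SE of the limma fit), si-uc.323 minus si-scramble here and throughout, or 3.97-fold lower, and the probe was well above background on all 6 arrays. Ranked by log2 fold change from the lowest, Grb7 stood at place 7 of the 11580 genes.

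The si-uc.323 arrays of both slides showed it. Within slide 1, where si-uc.323 replicate 1 stood against all si-scramble arrays, it was -1.89. With any 1 array left out it lay between -2.05 and -1.87, and over all alternatives in which it was recomputed between -2.09 and -1.66. Only 1 probe represented Grb7, so no second probe checked it, and loss of particular transcript forms and loss of all of them cannot be told apart. Of the 8 genes tested, Grb7 was the 1 past an adjusted p of 0.05 (limma, Benjamini-Hochberg over all features), in a table where 6.14% of genes were past it in either direction, 2.88% as lower and 3.26% as higher. It was not past it without si-scramble replicate 1 or 3, nor with the slide as a block, where 0, 0 and 3 of all genes passed. Without si-scramble replicate 2, 12 of all genes passed, Grb7 among them. Since Grb7 was chosen from this comparison, nothing is read from these counts.

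**Figure D1:**
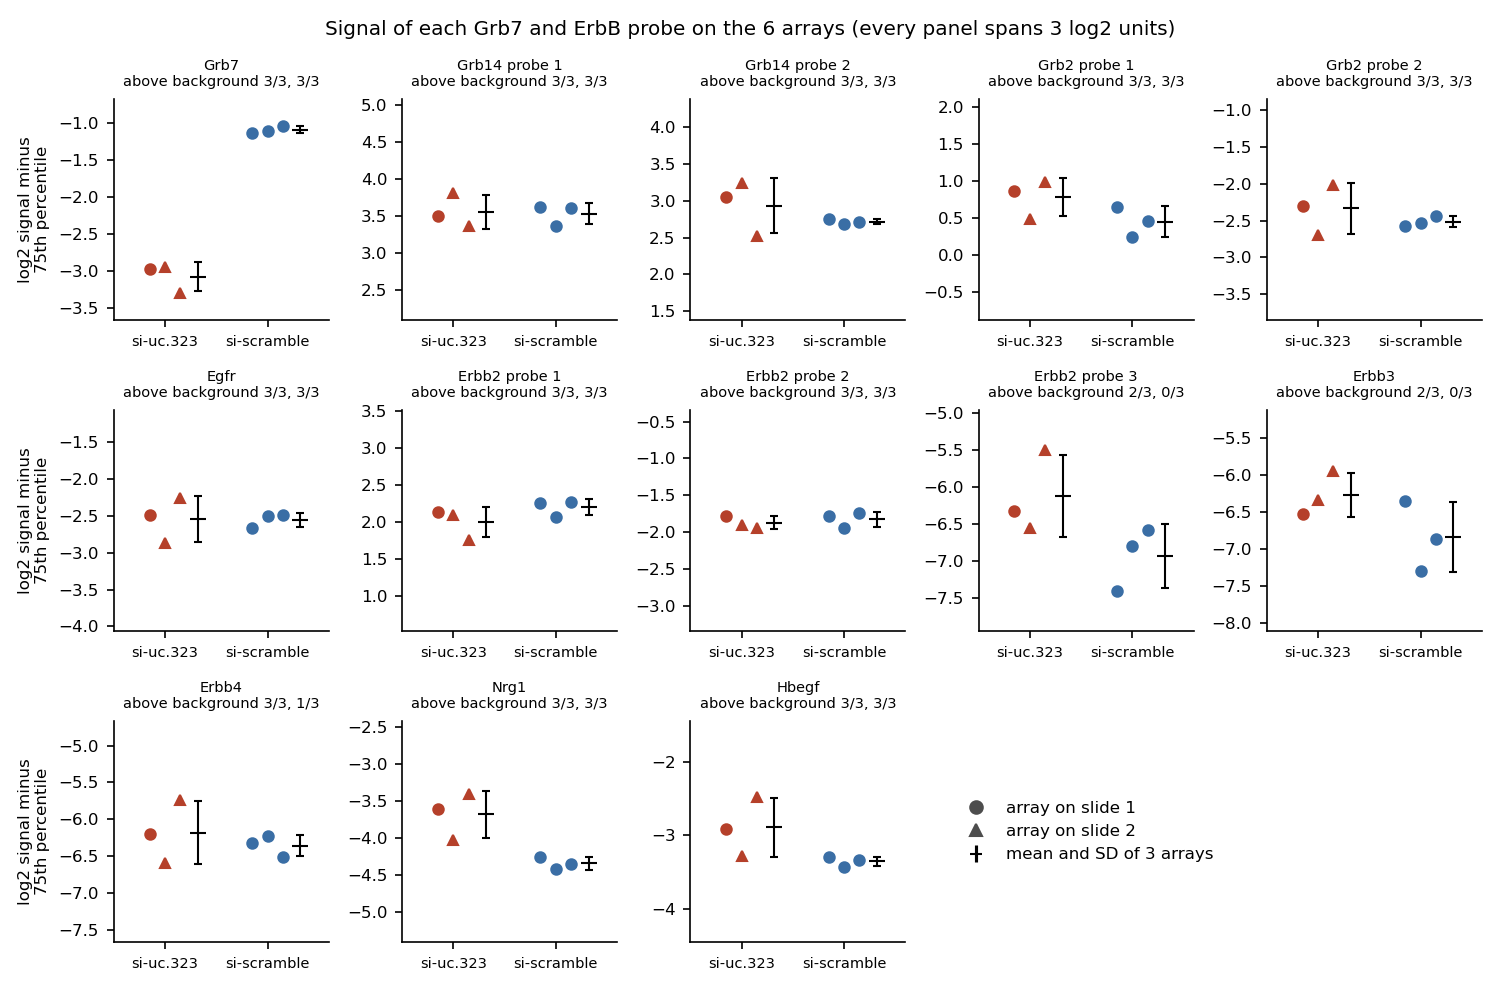
Log2 signal minus the array's 75th percentile for each of the 13 probes, with si-uc.323 on the left and si-scramble on the right of each panel, circles for arrays on slide 1, triangles for slide 2, and bars for the mean and SD of 3 arrays. Probes of a gene are numbered from the brightest, and the panel titles give on how many arrays of si-uc.323 and then of si-scramble the probe was well above background; the groups are far apart for Grb7, and apart by less for Nrg1 and Hbegf.

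Grb14, a family member that inhibits the insulin receptor, had overlapping groups at both of its probes. Its brighter probe read 3.50, 3.81 and 3.36 on the si-uc.323 arrays, against 3.62, 3.37 and 3.60 on the si-scramble arrays. The log2 fold change was 0.03 ± 0.15, and it was negative at -0.04 under normexp background correction. A dimmer Grb14 probe read 3.04, 3.23 and 2.52 with si-uc.323 and 2.76, 2.68 and 2.71 with si-scramble, a difference of 0.22 ± 0.19. There si-uc.323 replicate 3 lay below every si-scramble array and the other 2 above. Neither Grb14 probe came near the difference of Grb7.

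Grb2, the adaptor that carries the Ras activator Sos to receptors, read 0.86, 0.49 and 0.99 on the si-uc.323 arrays, against 0.65, 0.23 and 0.45 on the si-scramble arrays. The log2 fold change was 0.33 ± 0.17 at this brighter probe and 0.18 ± 0.18 at the dimmer one. Both probes were positive under every alternative tried, between 0.02 and 0.48, but the groups overlapped at both.

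Among the receptors, Erbb2 had a bright probe that read 2.13, 2.10 and 1.76 with si-uc.323 and 2.26, 2.07 and 2.27 with si-scramble. The groups overlapped, with a log2 fold change of -0.21 ± 0.14. A second Erbb2 probe gave -0.05 ± 0.11. The third was dim: it passed background on both arrays of slide 2 and nowhere on slide 1, and it was not tested. Its values were -6.32, -6.55 and -5.50 with si-uc.323 and -7.41, -6.80 and -6.58 with si-scramble, so the groups stood apart. No fold is given at such levels, and with normexp background correction the log2 difference was -0.07. Both Erbb2 probes that were tested thus had a negative difference and overlapping groups. The second was positive in 2 of 14 alternatives, the slide block and slide 1 alone, which share 1 value (0.05). The replicate block, also among the 14, repeats the reported difference.

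Egfr, the receptor of epidermal growth factor, read -2.50, -2.88 and -2.26 on the si-uc.323 arrays, against -2.66, -2.51 and -2.49 on the si-scramble arrays. The si-uc.323 arrays lay on both sides of the others, and the log2 fold change was 0.01 ± 0.17. Its sign was positive in 6 of the same 14 alternatives, which are not all distinct. Erbb4, a neuregulin receptor of myocytes, was close to background. Its probe passed background in the whole si-uc.323 group and on 1 si-scramble array, with values of -6.20, -6.59 and -5.74 with si-uc.323 and -6.32, -6.23 and -6.51 with si-scramble. The log2 fold change was 0.18 ± 0.22, and -0.17 under normexp, which adds an offset of 50 intensity units and compresses dim probes. The offset comes before the 75th percentile shift, so the value of a dim probe leans on that percentile. Without normexp the percentile was 1205, 1718 and 1775 intensity units on si-uc.323 replicates 1, 2 and 3. On the si-scramble arrays it was 1182 to 1381. Dim probes can thus read lower in si-uc.323 under normexp, here and for other genes, and the size of this was not tested.

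Erbb3, the receptor that needs a partner kinase, likewise passed background only on the slide 2 arrays and was not tested. Its values were -6.52, -6.33 and -5.94 with si-uc.323 and -6.35, -7.30 and -6.86 with si-scramble. They overlapped, and under normexp the log2 difference was -0.18. No fold is given, since 1 si-uc.323 array was not above background either. For Erbb3 and the third Erbb2 probe the arrays that passed, both of slide 2, were also those with the most probes above background, and the part of brightness in these values was not tested.

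Neither ligand of the set was past the threshold, but the groups stood apart for both. Nrg1, neuregulin 1, read -3.62, -4.03 and -3.41 with si-uc.323 and -4.26, -4.43 and -4.35 with si-scramble. Every si-uc.323 array lay above every si-scramble array, with means of -3.68 ± 0.32 in si-uc.323 and -4.35 ± 0.08 in si-scramble (SD, n = 3 each). The log2 fold change was 0.66 ± 0.17, and 0.73 within slide 1. With 1 array left out it lay between 0.53 and 0.84, and under normexp it was 0.21. Endothelial markers, from cells known to make neuregulin, had a lower summed signal in si-uc.323 but a median log2 fold change near 0 (above), and their part was not tested.

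Hbegf, the heparin-binding ligand of EGFR and ErbB4, read -2.92, -3.28 and -2.47 with si-uc.323, against -3.30, -3.42 and -3.34 with si-scramble. The groups did not overlap, although si-uc.323 replicate 2 lay only just above the highest si-scramble array. The log2 fold change was 0.46 ± 0.20, 0.43 within slide 1, 0.31 under normexp and between 0.25 and 0.66 with 1 array left out. In all, 2 of the 8 genes tested were higher without overlap and 1 was lower, in a table where the groups of 39.1% of genes did not overlap (20.1% higher, 19% lower). Both genes were called higher when si-uc.323 replicate 2 was left out, and Nrg1 also with a trended and robust prior. Over all genes, 1204 were called higher without that array and 609 with that prior, against 377 as reported.

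**Figure D2:**
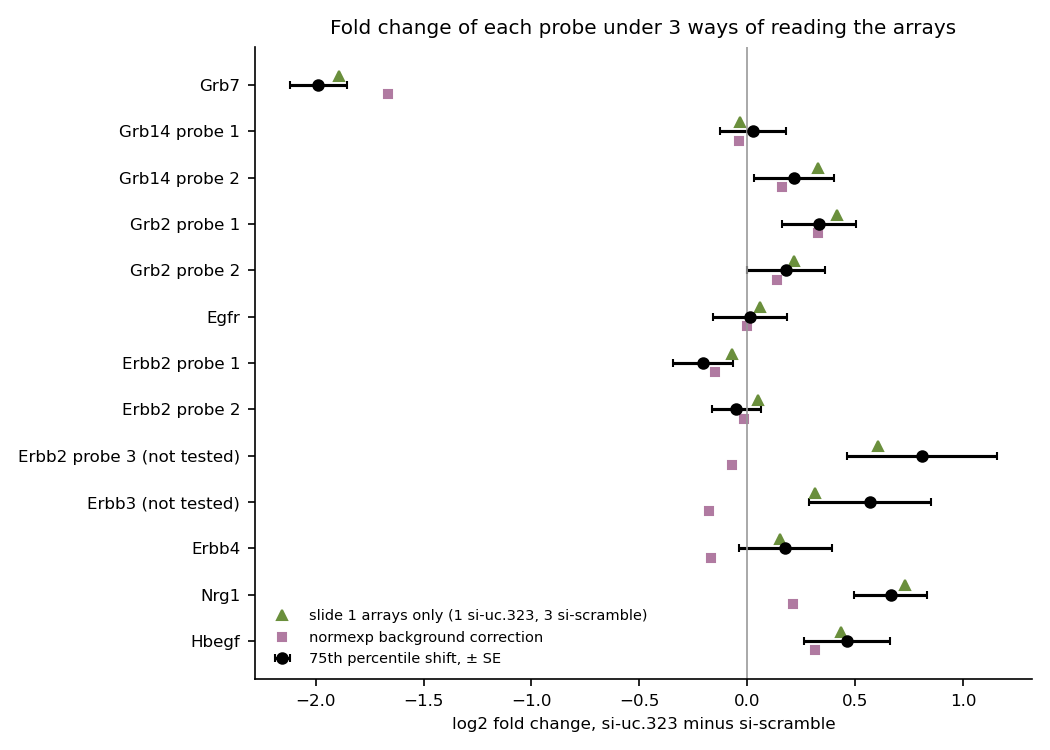
Log2 fold change of each probe, si-uc.323 minus si-scramble, as reported (black, ± SE), on the arrays of slide 1 alone (green triangles) and with normexp background correction (purple squares). Grb7 lies at -1.99, -1.89 and -1.66; the dim probes of Erbb2, Erbb3 and Erbb4 change sign with normexp.

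Of the other ligands of the family, Areg and Ereg rose with si-uc.323. The list held 9 genes, of which 6 were tested, 2 were called higher and none lower, in a table where 3.26% of genes were called higher. The median log2 fold change was 0.21 against 0.04 for all features. Areg, amphiregulin, a ligand of EGFR, read -1.69, -1.63 and -1.96 with si-uc.323 and -2.49, -2.71 and -2.54 with si-scramble. The groups stood apart, and the log2 fold change was 0.82 ± 0.13 (limma, adjusted p = 0.0270). Ereg, epiregulin, which binds EGFR and ErbB4, read -4.64, -4.75 and -4.76 with si-uc.323 and -5.57, -5.54 and -5.36 with si-scramble, a log2 fold change of 0.77 ± 0.11 (limma, adjusted p = 0.0231). Within slide 1 the differences were 0.89 for Areg and 0.85 for Ereg. Under normexp Areg still passed (0.64, adjusted p = 0.0277) and Ereg did not (0.14, adjusted p = 0.473).

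Tgfa, another EGFR ligand, was not past the threshold, with a log2 fold change of -0.21 ± 0.12, and Nrg4 was not either (0.32 ± 0.14). Btc (0.11 ± 0.18) and Egf (0.06 ± 0.10) lay nearer to 0. With any si-scramble array left out neither Areg nor Ereg passed. Without replicates 1, 2 and 3 the adjusted p (limma) was 0.113, 0.105 and 0.140 for Areg. For Ereg it was 0.114, 0.0954 and 0.129, and 0, 12 and 0 of all genes passed in these fits.

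The start region of Areg is shown because Areg had the larger of the 2 ligand increases and a RefSeq promoter entry. The window of 300 bases covers 250 before and 50 after the annotated start, chr14:17265592-17265891 on the minus strand of build GRCr8. Capitals mark TGACGTCA, the cyclic AMP response element, and TATAAA, the TATA box.
Areg promoter: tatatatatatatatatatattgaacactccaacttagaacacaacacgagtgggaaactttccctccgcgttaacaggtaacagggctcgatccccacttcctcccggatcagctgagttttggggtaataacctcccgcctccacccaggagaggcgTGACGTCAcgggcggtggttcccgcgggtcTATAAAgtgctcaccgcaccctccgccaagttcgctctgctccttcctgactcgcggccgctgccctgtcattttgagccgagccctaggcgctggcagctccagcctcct
The first base of TGACGTCA lay 91 bases and that of TATAAA 61 bases upstream of the annotated start. On either strand, TGACGTCA was found in 1.83% and TATAAA in 14.2% of the 33469 RefSeq rat promoters of the same length. Neither motif was in the windows of Grb10, Grb14, Egfr, Erbb2, Erbb4 or Hbegf. GGGCGG and CCAAT were searched as well. GGGCGG (33.1% of promoters) was in the windows of Areg, Grb10, Grb14, Egfr, Erbb2 and Erbb4. CCAAT (37.5%) was in those of Erbb2 and Hbegf and not in that of Areg. These matches describe letters only. Grb7, Grb2, Erbb3, Nrg1 and Ereg had no entry.

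The rest of the pathway was taken from 9 lists of 109 genes, the ligands included, of which 89 were tested. Of these, 5 were called higher, among them Areg, Ereg, Rnd1 and Spred1, and none lower, or 5.62%, beside 6.14% of all genes. The median log2 fold change was 0.09, and 53 of the 89 were positive. The share called was thus near that of all genes.

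Spred1, which restrains signalling below Ras, was called higher by 0.49 ± 0.11 on the log2 scale (limma, adjusted p = 0.0478), as 1 of 14 tested negative regulators (7.14%, beside 6.14% of all genes). Its values were -4.08, -4.10 and -3.92 with si-uc.323 and -4.59, -4.48 and -4.51 with si-scramble, with no overlap and a difference of 0.45 within slide 1. Spry2, a Sprouty inhibitor, gave 0.57 ± 0.16, and Dusp6, a phosphatase of ERK, -0.10 ± 0.14, neither past the threshold. Rnd1, a small GTPase reported to bind Grb7, read -3.88, -4.27 and -3.86 with si-uc.323 and -4.64, -4.86 and -4.58 with si-scramble. The groups were apart, with a log2 fold change of 0.70 ± 0.15 (limma, adjusted p = 0.0476) and 0.82 within slide 1. Among the 6 genes tested in that list of focal adhesion and Src kinases, Ptk2, the focal adhesion kinase that Grb7 binds, gave -0.46 ± 0.13 without passing.

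No gene passed in the other 5 lists. In ligand processing (7 tested) the lowest adjusted p values were those of Adam19, a sheddase of neuregulin (-0.46 ± 0.11), and Furin, a proprotein convertase (-0.45 ± 0.14). Among 16 other adaptors they were those of Frs3 (-0.56 ± 0.14), which docks at FGF receptors, and Sos1 (-0.39 ± 0.15), a Ras activator whose second probe gave 0.01 ± 0.12. In the PI3K and Akt list (12 tested) they were Pik3cb (0.82 ± 0.24) and Pik3r1 (0.54 ± 0.18), a catalytic and a regulatory subunit. Of 8 growth factor target genes, Fosl1 gave -0.38 ± 0.12 and Fos 0.22 ± 0.10. Of 10 other receptor kinases, the ephrin receptor Ephb1 gave -0.41 ± 0.14 and Tek, the endothelial angiopoietin receptor, 0.46 ± 0.19.

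The calls of Spred1 and Rnd1 were sensitive to processing and to single arrays. Under normexp Spred1 (0.08, adjusted p = 0.668) and Rnd1 (0.28, adjusted p = 0.212) did not pass. None of the 5 called genes passed without si-scramble replicate 1, 2 or 3, where 0, 12 and 0 of all genes passed. Spred1 and Rnd1 did not pass without si-uc.323 replicate 1 or 3, where 451 and 292 of all genes passed. Without si-uc.323 replicate 2 the count in the 9 lists was 18, with 15 higher and 3 lower. The count over all genes rose too, to 1859 (1204 higher, 655 lower) from 711 as reported. With the slide as a block no gene of the lists passed, against 9 at an unadjusted p under 0.05, beside 1769 of all 11580 genes.

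**Figure D3:**
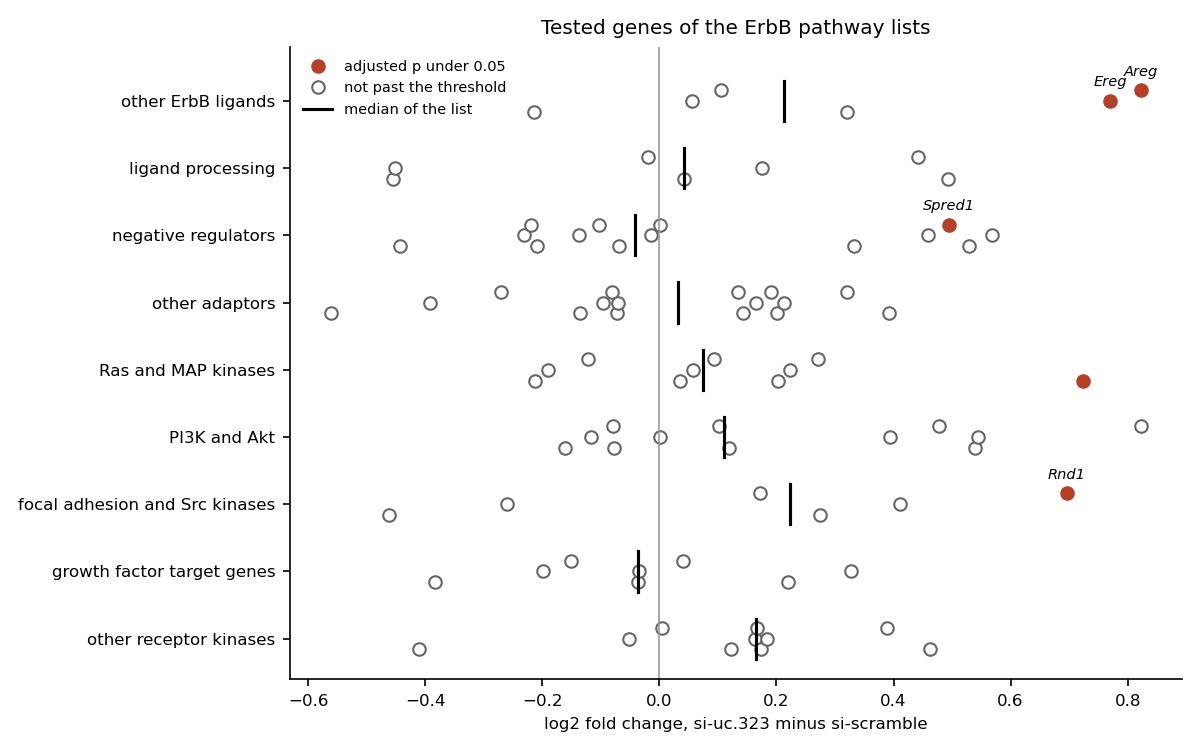
Log2 fold change, si-uc.323 minus si-scramble, of the 89 tested genes in the 9 pathway lists, 1 point per gene, with filled points for an adjusted p under 0.05 and a black line for the median of each list. The 5 filled points all lie above 0, and Areg, Ereg, Spred1 and Rnd1 are labelled.

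Grb7 lies beside Erbb2 on rat chromosome 10, with Mien1 between them, so the neighbouring genes were examined as well. Of 15 listed neighbours 9 were tested, and 2 were called lower and none higher (2.88% of all genes were lower). Pgap3, an enzyme that remodels lipid anchors of surface proteins, read -0.50, -0.59 and -0.80 with si-uc.323, against 0.11, -0.05 and 0.19 with si-scramble (log2 fold change -0.71 ± 0.13, limma, adjusted p = 0.0332). Zpbp2, known from sperm, read -1.67, -1.69 and -2.11 with si-uc.323 and -1.03, -1.21 and -1.10 with si-scramble. Its log2 fold change was -0.71 ± 0.15 (limma, adjusted p = 0.0438), and its dimmer probe gave -0.26 ± 0.17. Both genes were lower on every si-uc.323 array, and within slide 1 by -0.58 for Pgap3 and -0.56 for Zpbp2.

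Of the 9 neighbours tested, 2 had a positive and 7 a negative log2 fold change, with a median of -0.26 against 0.02 for all named genes. Mien1, a membrane-associated protein encoded next to Grb7, gave 0.32 ± 0.12. Psmd3, a proteasome subunit, gave 0.73 ± 0.18. Neither passed, but in both every si-uc.323 array was above every si-scramble array. Stard3 (-0.26 ± 0.19), Thra, the thyroid hormone receptor alpha (-0.26 ± 0.15), Med24 (-0.22 ± 0.13), Csf3 (-0.30 ± 0.33) and Pnmt (-0.05 ± 0.13) had overlapping groups. Erbb2 itself, between Pgap3 and Mien1, gave -0.21 ± 0.14. Grb7 was thus at -1.99 in a stretch whose other listed genes, where tested, lay between -0.71 and 0.73. The list did not hold every gene of the stretch. Neither neighbour call was kept when si-uc.323 replicate 3 or any si-scramble array was left out (Pgap3: adjusted p = 0.0566 without si-uc.323 replicate 3, and 0.134, 0.0972 and 0.169 without si-scramble replicates 1, 2 and 3; Zpbp2: adjusted p = 0.0545 without si-uc.323 replicate 3, and 0.157, 0.126 and 0.183 without the si-scramble replicates). Zpbp2 was also not called without si-uc.323 replicate 1 (limma, adjusted p = 0.0510). Of all genes, 451 and 292 passed without si-uc.323 replicates 1 and 3, and 0, 12 and 0 without si-scramble replicates 1, 2 and 3.

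**Figure D4:**
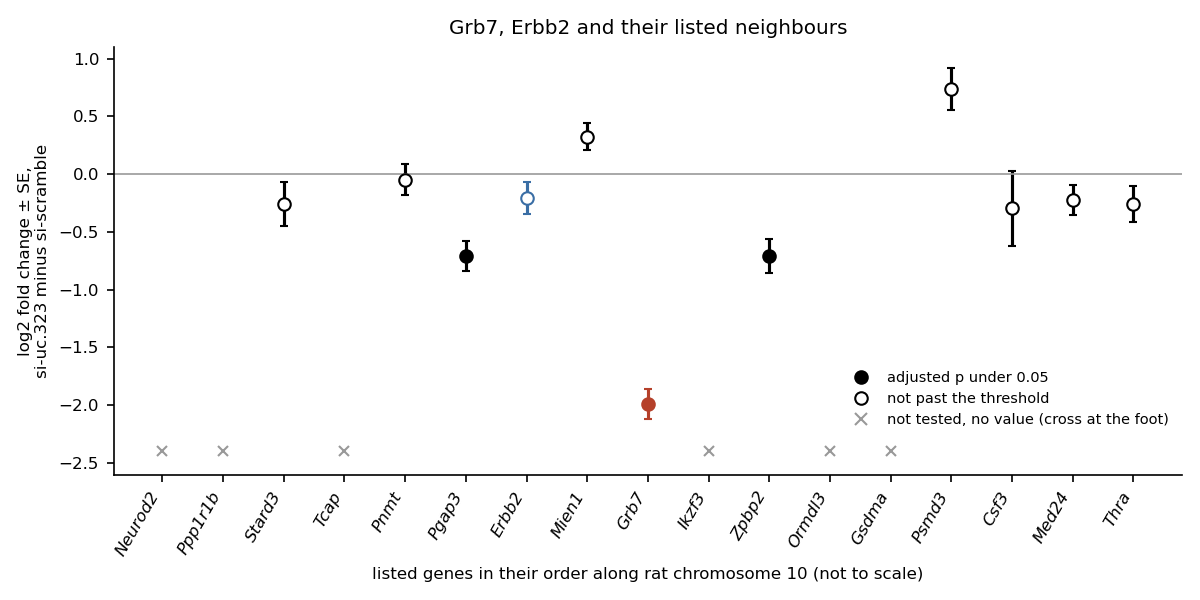
Log2 fold change ± SE, si-uc.323 minus si-scramble, of Grb7 (red), Erbb2 (blue) and the listed neighbours in their order along chromosome 10, not to scale, with filled points for an adjusted p under 0.05 and crosses for genes without a tested probe. Grb7 stands at -1.99, Pgap3 and Zpbp2 at -0.71, and Psmd3 at 0.73.

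The genes whose values over the 6 arrays were most like those of Grb7 were all strongly lower with si-uc.323. Likeness was the root mean square difference between profiles after each gene's mean over the 6 arrays was taken off. Rec8, a meiotic cohesin subunit, was nearest at 0.09 log2 units. Chrng, an acetylcholine receptor subunit, was at 0.19, Grp, gastrin-releasing peptide, at 0.23 and Myoc, the secreted protein myocilin, at 0.24. Rec8 had a log2 fold change of -2.04 and Myoc of -1.51. Myoc read -2.50, -2.52 and -2.82 with si-uc.323, against -1.10, -1.16 and -1.05 with si-scramble. Its si-uc.323 replicate 3 was thus the lowest array, as for Grb7, Rec8 and Chrng. Grp went the other way, with -5.57, -5.35 and -5.19 on si-uc.323 replicates 1, 2 and 3. Likeness in such details was in part built in, since the genes were picked for near profiles. Ly6d, a lymphocyte surface antigen, was also among the 5, but it passed background in the si-scramble group alone, so its distance and place are not given. The 6 genes share the arrays, the slide layout and the direction on which Grb7 was chosen, and the likeness is a description of these arrays.

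**Figure D5:**
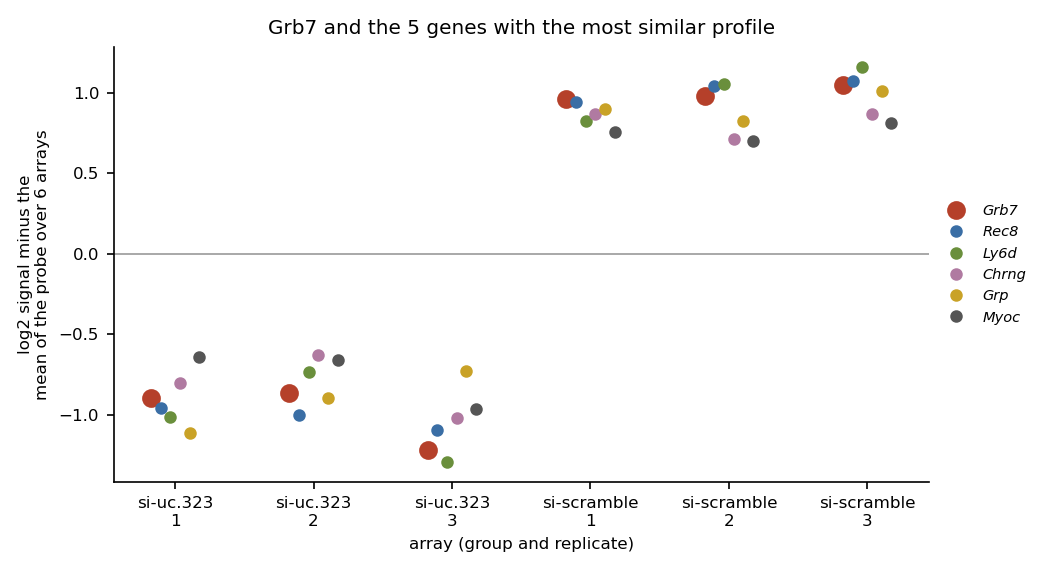
Log2 signal of Grb7 and of the 5 genes with the nearest profile on each array, after subtraction of each probe's mean over the 6 arrays, with the si-uc.323 arrays on the left. All 6 genes lie below 0 on the si-uc.323 arrays and above 0 on the si-scramble arrays, and Ly6d was not above background on the si-uc.323 arrays.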

How the data were processed

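RNA of 6 cultures was labelled with Cy3 for 1-colour Agilent arrays, per the labels' protocols. The deposited scanner files hold linear spot intensity after background subtraction and detrending by Agilent Feature Extraction 11.0.1.1, and flags of other kinds, per the file headers; nothing was scaled between arrays. The authors' deposited log2 values, of unstated scale and centring, had column medians of 6.52, correlated at 0.9954 to 0.9995 with the scanner values and served as an alternative.

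Control and outlier spots (322 to 594 of 42877 an array) were left out. No spot was saturated. Each array was shifted by the 75th percentile of its intensity, and replicate spots were averaged. Of 30367 probes, 18005 matched a gene of the RefSeq annotation of GRCr8 by accession, 12362 matched none, and 44 lacked a value on some array. The headers place probes on rn4, and no coordinates were carried over. With the brightest probe for each gene, 19920 features passed the filter. Groups were compared with limma 3.58.1 (R 4.3.3) without a covariate, adjusting over all features; other probes of a gene took their SE from a fit of every probe. No label says which cultures shared animals, so the p-values reflect only the spread among these samples, and the number of arrays limits the precision. On simulated data of 19920 features with 200 changed, 1.49% were recovered at a log2 change of 0.5, 67.2% at 1 and 93.9% at 2, and 8 unchanged features were called. Fewer features were changed there than the 711 genes called here, so recovery in these data can differ.

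Members and lists were chosen with earlier results of these data known. The text names all members, the called genes of each list or else the 2 with the lowest adjusted p, the tested neighbours, and the 5 nearest profiles; Tgfa, Nrg4, Btc, Egf, Spry2, Dusp6 and Ptk2 were chosen after their values were seen, and 1 called gene of the lists is not reported here. Alternatives covered background correction, scaling, filters, probe choice, prior, blocks and single arrays; cyclic loess and slide 1 alone were added after seeing the data. Plots came from Python 3.11.15 and matplotlib 3.10.9.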

Additional observations from a re-analysis of the deposited data

How the results depend on the processing

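The Grb7 log2 fold change, -1.99 as reported, kept its sign under all 14 alternatives in which it was recomputed. It was -2.05 to -1.87 with 1 array left out, and moved by more than its replicate spread with normexp alone (-1.66). Of the 14, the slide block and slide 1 alone give the same fold change, and the replicate block repeats the reported one. The number of the 10 genes past the threshold, 1 as reported, was 2 with a trended and robust prior and 0 without a background filter (2 at an unadjusted p under 0.05), with the slide block (2) and on slide 1 alone (3). It ranged from 0 to 3 with 1 array left out. It was 0 without si-scramble replicate 1 or 3 (0 of all genes in either fit) and 3 without si-uc.323 replicate 2 (1859 of all genes). The 5 pathway calls became 3 with quantile normalization, a median shift and the series values, and 0 without a background filter (23 at an unadjusted p under 0.05), with the slide block (9) and on slide 1 alone (28); with 1 array left out they ranged from 0 to 18. With normexp 2 were higher and 2 lower. The 2 neighbour calls became 0 without a background filter (4 unadjusted), with the slide block (2) and on slide 1 alone (5), and ranged from 0 to 4 with 1 array left out. Over all genes, 711 passed (377 higher, 334 lower), against 1172 with the trended prior, 1182 with cyclic loess, 3 with the slide block, 0 without a background filter (3110 unadjusted) and 0 on slide 1 alone (3639), and 0 to 1859 with 1 array left out. The median of all features, 0.04, became -0.06 with a median shift (279 higher, 504 lower) and -0.07 with normexp (315 higher, 424 lower), and the split was 405 to 580 with quantile normalization, 405 to 574 with the series values and 508 to 674 with cyclic loess. The slide block and the slide 1 fit rest on si-uc.323 replicate 1 alone and leave fewer residual degrees of freedom. The replicate block and the fits with 1 array left out leave fewer as well. Dropping the filter adds features to the adjustment. The part of these points in the counts, and the cause of any other change, was not tested. Replicate numbers gave no clear pairing (correlation of deviations 0.17, 0.21 and -0.09 for replicates 1, 2 and 3); with the replicate block 3 pathway genes, 0 neighbours and 404 genes in all passed, and Grb7 stayed the 1 member called. Probes near background (Erbb3, Erbb4 and the third of Erbb2) are limited by signal over background.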
